A study of Bos taurus with 2 samples.

Results

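Bovine milk whey was split into 2 fractions by centrifugation, and the messenger RNA of each was read on 1 array. The genes described here carry antibody across the milk-forming epithelium or serve the plasma cells that secrete it: PIGR, FCGRT, JCHAIN, MZB1, TNFRSF17, PRDM1 and IRF4. They were chosen by name, through the gene name that the array files give each non-control probe, with JCHAIN also under its older name IGJ. Of the 7 genes, 6 had a probe, with 15 probes in all, out of 17217 named genes with 35130 probes. No probe carried the name TNFRSF17 in the files used here, so that gene was not analysed here.

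The exosome group is whey pelleted for 90 min and washed in 2 further spins, and the supernatant group is the whey left above the pellet. The labels give the speed as 10000 g, which is low for pelleting exosomes, and whether that figure is right could not be checked. Whether the spin pellets small vesicles as the label implies was not tested here, so "exosome" below is the fraction's label. RNA of 3 milk samples of Holstein cows was mixed equally, and 100 ng per fraction was labelled with the green dye Cy3. Each fraction is therefore 1 pool on 1 array: there are no replicates, no difference below has a test, and the number of arrays limits the precision. In such a pool, more particles or cells that hold a transcript and more RNA in each cannot be told apart.

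Milk antibody reaches the udder lumen by receptors that ferry it through epithelial cells. PIGR, the polymeric immunoglobulin receptor, binds polymeric IgA and IgM on the side of the cell that faces the blood, is carried to the milk side and is cut there, leaving its outer part on the antibody as secretory component. FCGRT is the heavy chain of the neonatal Fc receptor, which pairs with beta-2-microglobulin and moves or recycles IgG. JCHAIN is the joining peptide that links antibody monomers into the polymers that PIGR recognises. MZB1 is an endoplasmic reticulum protein that helps assemble and secrete antibody, PRDM1 (also called BLIMP1) and IRF4 are transcription factors that drive B cells to become plasma cells, and TNFRSF17 is a survival receptor of plasma cells. PRDM1, IRF4 and FCGRT are also active in other cell types.

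The probes are 60-base oligonucleotides with the same sequence as the messenger strand, and each position below counts along the transcript that the file names. The following sequences come from the array files and show what most of the readings rest on. Those of PIGR position 3510 and PRDM1 positions 2283, 3902 and 4800 are not printed. The printed sequences are whole for 5 probes and the first 30 bases for the other 6, all written 5′ to 3′. Capitals mark a run of 6 G in an FCGRT probe and the stop codon that ends a PRDM1 probe.
PIGR position 588: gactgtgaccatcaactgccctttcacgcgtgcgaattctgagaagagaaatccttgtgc
PIGR position 3522: gcacttcaactagcatctatgagctggcac
FCGRT position 484: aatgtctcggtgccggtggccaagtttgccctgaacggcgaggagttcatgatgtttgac
FCGRT position 1439: ttttttagggaattgcgaGGGGGGataaat
FCGRT position 1498: tgaggctaacttgttgccatggtggaattt
JCHAIN position 795: tttggctttgccctagagagcctgagcttt
JCHAIN position 1114: atcacctctgttgtaactaaatctaacaaa
MZB1 position 585: agacacaaggacagagctctagtccaactc
PRDM1 position 2427: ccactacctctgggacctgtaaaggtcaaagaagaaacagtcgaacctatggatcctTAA
IRF4 position 683: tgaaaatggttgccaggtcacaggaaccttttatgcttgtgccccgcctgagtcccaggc
IRF4 position 1296: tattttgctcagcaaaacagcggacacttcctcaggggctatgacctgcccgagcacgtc

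The first question was which of these transcripts could be seen in each fraction. All 6 genes with a probe were seen well above background in exosome RNA, as were 66.4% of all named genes. On the supernatant array JCHAIN, MZB1 and PRDM1 were well above background, and PIGR, FCGRT and IRF4 were not: 3 of 6, against 22.1% of all named genes. Counted by probe, 13 of 15 were well above background in the exosome fraction and 3 of 15 in the supernatant, against 60.9% and 13.1% of the probes of all named genes. "Well above background" is the scanner software's own call, and the lowest signal that received it was 11.3 with exosome RNA and 9.04 with supernatant RNA. Over the whole array 58.5% of 43652 probes were well above background in the exosome fraction and 13.1% in the supernatant, so a fall below background in the supernatant is the common outcome for any probe.

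The receptor that carries polymeric antibody, PIGR, was well above background in the exosome fraction alone. Its probe at position 3522 had a processed signal of 2019 ± 202 with exosome RNA and 5.48 ± 2.04 with supernatant RNA, where ± is the scanner software's error of that spot. The probe at position 3510, which shares 47 bases with it and so repeats the same stretch, gave 1954 ± 195 and 4.23 ± 2.01. Both supernatant signals were under the 9.04 given above, and that of position 3522 was above 4.32, the 99th percentile of the array's negative controls. Before any scaling between the arrays the exosome signal was therefore at least 223-fold and 216-fold higher at these positions, taking that lowest signal in place of the dim one. At position 588, nearer the 5′ end, PIGR gave 119.6 ± 12.3 with exosome RNA and 2.26 ± 2.25 with supernatant RNA, at least 13.2-fold higher. The mean bound over the 3 probes was 86.1-fold. It counts the overlapping probes separately, so their stretch weighs more than position 588. In the build of the array's design, HGSC Btau_3.1, the position 3522 probe lies on chromosome 16 from 3730274 to 3730333, on the minus strand. The interval that the file lists for the position 588 probe spans 9 bases, too short for the probe, so no place is given for it.

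FCGRT, the IgG receptor chain, showed the same pattern of detection, with exosome signal at all 3 probes and no supernatant signal well above background. At position 1498 (chromosome 18, 55919229 to 55919288, plus strand) the signal was 951 ± 95.2 with exosome RNA and 2.39 ± 2.38 with supernatant RNA, at least 105-fold higher before scaling. The neighbouring probe at position 1439, the one with 6 G in a row, gave 704 ± 70.4 and 4.11 ± 1.95, at least 77.8-fold higher. The 2 probes share 1 base, so they read adjoining stretches and give bounds of like size. At position 484 (chromosome 18, 55914452 to 55914511) the signals were 26.1 ± 3.73 and 2.01 ± 2.0, at least 2.88-fold higher, the lowest of the 3 bounds. The mean bound for FCGRT was 28.7-fold.

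JCHAIN, the joining peptide of polymeric antibody, was seen in both fractions, but its 2 probes disagreed in the supernatant. The probe at position 1114 (chromosome 6, 88905085 to 88905144, minus strand) read 38.2 ± 4.56 with exosome RNA and 26.2 ± 3.71 with supernatant RNA. That is 1.45-fold higher in the exosome fraction before scaling, a log2 difference of 0.54. The probe at position 795 (88905404 to 88905463) read 49.8 ± 5.52 with exosome RNA and 2.08 ± 1.93 with supernatant RNA, at least 5.51-fold higher. So the exosome readings were both above background, and the supernatant held a clear signal at one end of the transcript stretch covered and none well above background 319 bases upstream.

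MZB1, the antibody assembly helper, was read by 1 probe and was well above background in both fractions. Its signals were 213 ± 21.4 with exosome RNA and 26.2 ± 3.22 with supernatant RNA. The exosome signal was 8.12-fold higher before scaling, a log2 difference of 3.02. The probe, at position 585, lies on chromosome 7 from 49972173 to 49972232 on the minus strand.

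Of the 2 transcription factors of the plasma cell, PRDM1 was well above background in both fractions and IRF4 in the exosome fraction alone. PRDM1 has 4 probes, and 1 of them was well above background on both arrays. At position 3902 (chromosome 9, 45919474 to 45919533, minus strand) the signal was 147 ± 15.0 with exosome RNA and 12.6 ± 2.43 with supernatant RNA, 11.7-fold higher before scaling (log2 difference 3.54). The supernatant value lies close to the lowest well-above-background signal there. The position 4800 probe gave 64.8 ± 6.90 and 1.89 ± 1.88, at least 7.16-fold higher, and the position 2427 probe, whose sequence ends in the stop codon, gave 16.6 ± 2.79 and 4.43 ± 1.88, at least 1.84-fold higher. The position 2283 probe was below that level on both arrays, at 3.93 ± 2.59 and 1.95 ± 1.94, and gives no fold.

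IRF4 rested on 1 of its 2 probes. At position 683 the signal was 371 ± 37.2 with exosome RNA and 8.24 ± 2.14 with supernatant RNA, at least 41.0-fold higher before scaling. This supernatant value was the highest of the 12 member readings that were not well above background, and it lay above 4.32, the 99th percentile of that array's negative controls. So did the dim readings of PIGR at position 3522 and PRDM1 at position 2427, while the other 9 lay at or below it. The interval listed for the probe runs over 2019 bases of chromosome 23 (53259324 to 53261342, minus strand), so its 60 bases are not contiguous in the genome. At position 1296 (53251713 to 53251772) the signals were 3.54 ± 3.06 and 2.67 ± 2.45, not well above background on either array. With one probe bright and the other dim in the exosome fraction, the gene's call there depends on a single probe.

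**Figure D1:**
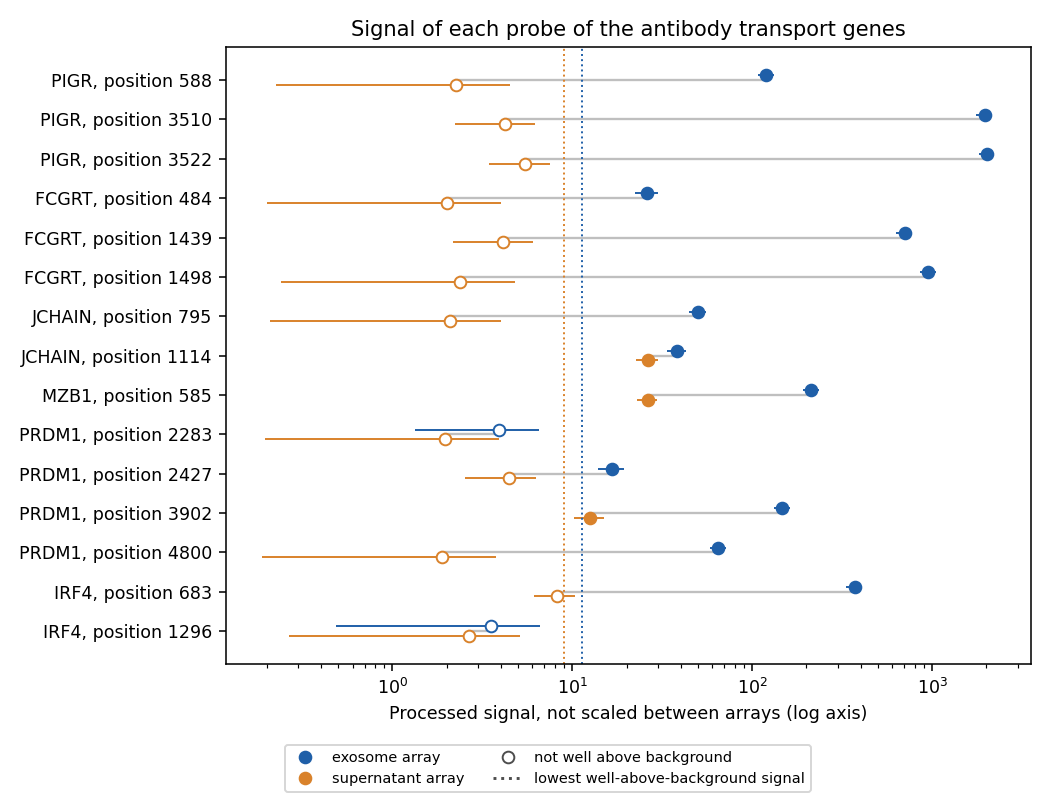
Processed signal of each of the 15 probes with exosome and with supernatant RNA (horizontal log axis, not scaled between arrays); bars are the scanner software's error of the spot, cut short on the low side where they would come close to 0, open circles were not well above background, and dotted lines mark the lowest signal of each array that was called well above background. All 3 PIGR and all 3 FCGRT probes have filled exosome circles and open supernatant circles, and only JCHAIN position 1114, MZB1 and PRDM1 position 3902 have filled circles on both arrays.

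How far these genes stood to one side depended on how the arrays were set against each other. For the 3544 genes with a measured difference, the exosome signal was higher by a median of 3.41 (log2) before scaling. Against that median gene the bounds were at least 3.01 above for PIGR, at least 1.94 above for IRF4 and at least 1.43 above for FCGRT. The measured values were 0.13 above the median gene for PRDM1, -0.39 for MZB1 and -2.87 for JCHAIN, the lowest of the 3 measured. The technical spread to read these against was an SD of 0.18 between spots of 1 probe (log2, 9 probes) and of 1.72 between different probes of 1 gene (537 genes). PRDM1 and MZB1 lay within 1.72 of the median gene, and the JCHAIN probe at position 1114 lay farther below it than that. The JCHAIN value rests on that probe alone, because a difference uses only probes seen in both fractions. Its other probe, at position 795, was left out because its supernatant signal was dim. That probe stood at least at -0.95 against the median gene, so the gene's low place depends on which probe is used.

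Scaling each array to its 75th percentile, taken over the 5305 probes well above background on both, lowers every difference by 5.45. After it PIGR stood at least 1.96-fold higher in the exosome fraction, just short of the 2-fold mark used as the size call. That mean counts the overlapping PIGR probes at positions 3510 and 3522 separately, so their stretch weighs most in it. Those probes stood at least 4.93-fold and 5.09-fold higher, and the position 588 probe had a bound under 1. FCGRT and IRF4 had mean bounds under 1 on that scale and so have no fold as genes. Of the FCGRT probes, those at positions 1498 and 1439 stood at least 2.40-fold and 1.77-fold higher, and the position 484 probe had a bound under 1. MZB1, PRDM1 and JCHAIN stood at -2.43, -1.91 and -4.92, that is, lower in the exosome fraction. On this scale 7002 of the 11358 genes with a value had a difference or bound at least 2-fold on the low side. The median over genes detected in the exosome fraction was -1.78, and MZB1 and PRDM1 lay near it. The count of genes at least 2-fold higher in the exosome fraction was 5 of 6 before scaling, where 90.3% of the 11358 genes with a value were, and 0 of 6 after it, where 15.9% were. The median of the 6 differences and bounds was 4.19 before scaling, against 3.67 for all genes detected in the exosome fraction. The direction of MZB1, PRDM1 and JCHAIN therefore turned with the scaling, while PIGR, FCGRT and IRF4 had only lower bounds under every scaling.

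**Figure D2:**
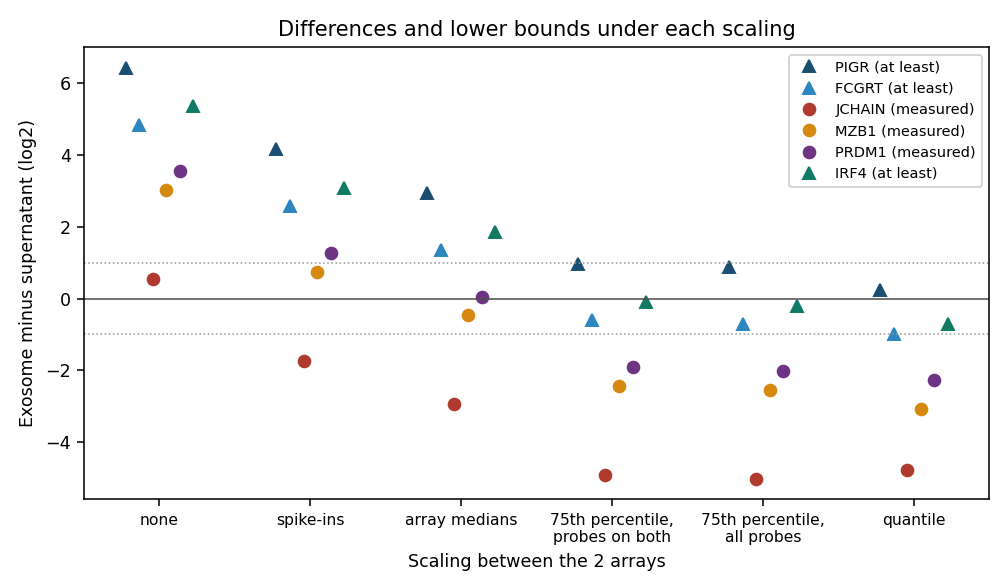
Exosome minus supernatant (vertical axis, log2) for the 6 genes under 6 ways of scaling the arrays; circles are measured differences, triangles are lower bounds of genes not well above background in the supernatant, and dotted lines mark 2-fold. Under each of these scalings JCHAIN is the lowest point and PIGR the highest, and every gene falls by 5.45 between no scaling and the 75th percentile over probes seen on both arrays.

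Where a gene had several probes, their readings were unequal. Bounds and differences ran over a range of 5.19 (log2) for FCGRT, 4.08 for PIGR, 2.67 for PRDM1 and 1.92 for JCHAIN, and for IRF4 1 probe has a value. JCHAIN and PRDM1, each with a supernatant signal at some probes and not others, share this with most of the array: of 2871 genes that have 2 or more probes and at least 1 detected in the supernatant, 94.5% had another probe that was not. The member probes held 30% to 55% G and C. A run of 5 or more G was present in 1 of the 15, the FCGRT probe at position 1439, which was not well above background in the supernatant. The scanner software's weaker flag, which asks only for a significant positive signal, was set for 15 of 15 probes on the exosome array and 10 of 15 on the supernatant array, including both PIGR probes near the 3′ end.

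The machinery that moves PIGR and FCGRT through the cell was read through a list of genes. Of 18 genes listed for antibody transcytosis and recycling, 16 had a probe, 13 were well above background in the exosome fraction and 3 in the supernatant, all 3 of them in both. These shares, 81.25% and 18.75%, stand beside 66.4% and 22.1% of all named genes, so the supernatant share was near the background. B2M, the beta-2-microglobulin partner of FCGRT, was well above background at 5 of 5 probes in the exosome fraction and at none in the supernatant, with a mean bound of 261-fold before scaling. RAB11A, the small GTPase of recycling endosomes, had a bound of 414-fold, and MYO5B, the motor that carries those endosomes to the apical membrane, one of 73.1-fold. RAB25, an epithelial relative of RAB11A, was measured in both fractions at 5534 and 11.2 and was 495-fold higher in the exosome fraction. It has 1 probe, whose supernatant signal lay close to the lowest well-above-background signal. At 1 of its 6 probes EXOC4, a subunit of the exocyst that tethers vesicles, was 15.7-fold higher in the exosome fraction before scaling. After scaling that difference was -1.48 on the log2 scale. The list's median difference or bound was 6.19 (log2), against 3.67 for all genes detected in the exosome fraction. Of 18 genes for receptors and factors that are known to raise or set PIGR expression, 17 (94.4%) were seen in the exosome fraction. In the supernatant 7 (38.9%) were seen, and the list's median was 4.12. IFNGR2, a chain of the interferon-gamma receptor, was 314-fold higher in the exosome fraction before scaling, NFKB1, a subunit of NF-kappa-B, 20.8-fold, and TNFRSF1B, a receptor for tumour necrosis factor, 2.23-fold. Each of these values rests on 1 probe, out of 4 for IFNGR2 and 2 each for NFKB1 and TNFRSF1B. The other TNFRSF1B probe was brighter with exosome RNA, at 184 against 101, and not well above background in the supernatant.

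Other Fc receptors, most of which bind antibody on leukocytes, were read as well. Of 12 such genes, 7 were well above background in the exosome fraction and 1, FCRL1, in the supernatant. These shares, 58.3% and 8.33%, stand beside 66.4% and 22.1% of all named genes. The list median was 2.38 (log2, differences and bounds before scaling). FCGR2B, an inhibitory IgG receptor, was at least 16.4-fold higher in the exosome fraction before scaling and TRIM21, the cytosolic antibody receptor, at least 24.7-fold. A bound reflects the exosome signal and the supernatant's detection limit, so these do not rank against the 28.7-fold of FCGRT.

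Plasma cell genes beyond the 7 were split by role. The secretory programme comprises the chaperones and enzymes that fold and export antibody and other proteins. Of its 22 genes with a probe, 21 (95.5%) were seen in the exosome fraction and 6 (27.3%) in the supernatant. Of all named genes 66.4% and 22.1% were, so the supernatant share was near the background. CALR (calreticulin) was 301-fold higher in the exosome fraction before scaling, SSR4, a translocon subunit, 56.4-fold, and DERL3, which helps remove misfolded protein, 1.84-fold, at signals of 19.04 and 10.3. Each of these values rests on 1 probe, out of 6 for CALR and 2 for SSR4. These genes serve any secreting cell, milk-forming epithelium included. Of 15 plasma cell surface and regulator genes with a probe, 8 were well above background in neither fraction. In the exosome fraction 7 (46.7%) were, and 3 of them (20%) also in the supernatant. Those 3 were SLAMF7, CD79A and TNFRSF13C, receptors of plasma cells or B cells, with differences of 1.71, 2.58 and -0.93 before scaling. TNFRSF13C, the receptor for the B cell survival factor BAFF, belongs to the same receptor family as TNFRSF17 and had signals of 19.3 with exosome RNA and 36.7 with supernatant RNA at 1 of its 2 probes. The other probe read 26.5 with exosome RNA and was not well above background in the supernatant, so the negative difference rests on a single probe.

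Antibody chains themselves were seen at few of their probes. Of 22 probes described as an immunoglobulin heavy or light chain, 6 were well above background in the exosome fraction and 5 of those also in the supernatant, and 16 in neither. Of all probes on the array 58.5% and 13.1% were, so the share of chain probes was below the background in the exosome fraction and above it in the supernatant, with no test of either. A probe for IGLL1, named for a lambda-like light chain, read 40809 with exosome RNA and 1142 with supernatant RNA, and a probe for the kappa constant region 7230 and 640, differences of 5.16 and 3.498 before scaling. IGHG1, the heavy chain of the main milk antibody of cattle, read 222 and 17.9, a difference of 3.63. A delta heavy chain probe read 266 and 12.3 and a light chain variable region probe 81.2 and 12.2, differences of 4.44 and 2.73. These 5 differences, from 2.73 to 5.16, enclose those of MZB1 and PRDM1 and lie above that of the JCHAIN probe at position 1114. They also enclose the 3.41 of the median gene, so the range does not set MZB1 and PRDM1 apart from other genes. Most of the dim probes read a single variable region or a single clone, and 4 of the other 5 IGLL1 probes were not well above background in either fraction.

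Markers of the cells that could carry these transcripts were read alongside. All 13 mammary epithelial markers were well above background in the exosome fraction and 10 (76.9%) in the supernatant. Their median difference or bound was 8.62 (log2) before scaling. Of 13 B cell markers, 7 were seen in neither fraction. In the exosome fraction 6 (46.2%) were seen and 2 of them (15.4%) also in the supernatant, with a median of 2.43. PAX5, a transcription factor of B cells, read 177 with exosome RNA and 15.6 with supernatant RNA, a difference of 3.503. For genes of plasma cell homing to the udder the counts were 6 of 9 and 3 of 9 (66.7% and 33.3%). Of all named genes 66.4% and 22.1% were seen, so the homing share in the exosome fraction was near the background. Before scaling CCL28, the chemokine that draws IgA plasma cells to the gland, was at least 32.0-fold higher in the exosome fraction, and ITGB7, an integrin chain measured in both, was 119-fold higher. The ITGB7 value rests on 1 of its 3 probes, with a supernatant signal of 12.2. The differences of MZB1 and PRDM1, at 3.02 and 3.54, lay near that of PAX5, and all 3 lay near the 3.41 of the median gene. The part of each cell type in the readings was not tested.

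**Figure D3:**
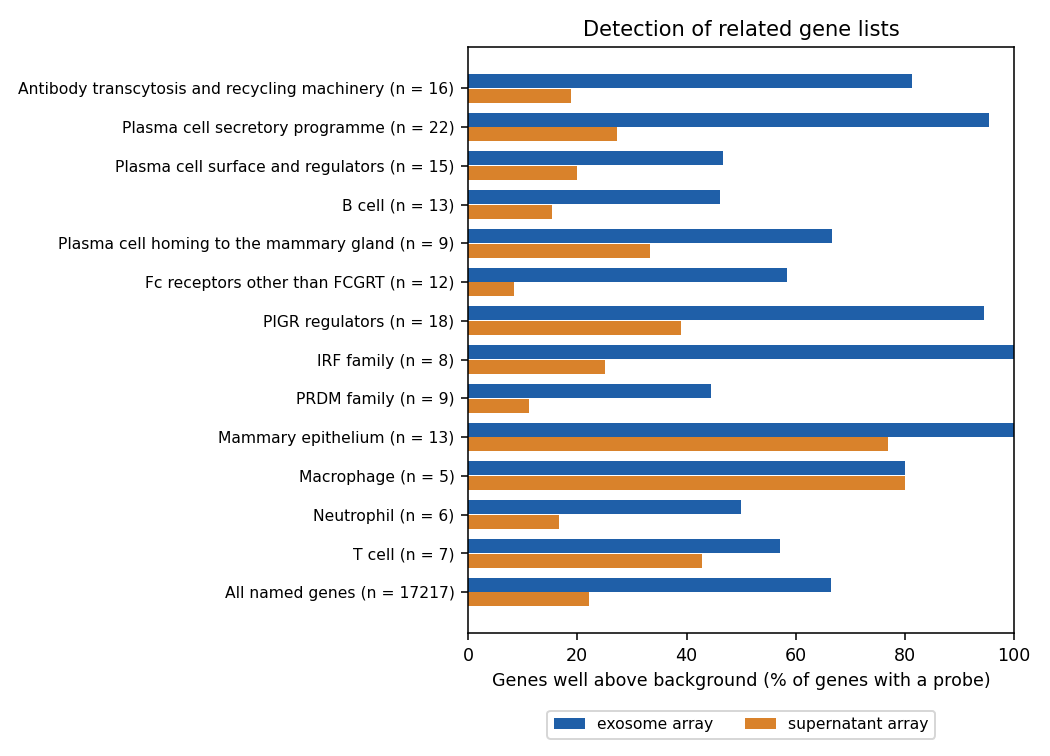
Share of genes seen well above background in each fraction, exosome above supernatant (horizontal axis, percent of the genes with a probe, n in brackets) for each list and for all named genes. All 8 IRF genes other than IRF4 and all 13 epithelial markers are seen in the exosome fraction, against 66.4% of all named genes, and each list except macrophage has a shorter supernatant bar.

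Relatives of the 2 transcription factors gave a backdrop for them. All 8 other IRF genes were well above background in the exosome fraction and IRF7 and IRF9 (25%) also in the supernatant. Of all named genes 66.4% and 22.1% were, so the supernatant share was near the background. IRF5 had a bound of 69.0-fold before scaling and IRF3 one of 48.6-fold, beside the 41.0-fold bound of IRF4. In the PRDM family 4 of 9 other genes (44.4%) were seen in the exosome fraction and PRDM15 alone (11.1%) also in the supernatant. The PRDM15 difference of 3.73 was close to that of PRDM1, at 3.54, and both lay near the 3.41 of the median gene.

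The genes nearest to each member in the plane of the 2 arrays' log2 signals, by the probe that is brightest in the exosome fraction, describe likeness over 2 arrays only, and signals of different probes do not rank amounts of transcript. For PIGR, FCGRT, JCHAIN and IRF4 the supernatant signal of that probe was not well above background. The nearest genes were COG2 and HEBP2 for PIGR, EMC2 and NUP35 for FCGRT, CGRRF1 and NT5C3A for JCHAIN, SCAMP5 and S1PR5 for MZB1, ITGB3BP and MORC2 for PRDM1, and ABL1 and DCTN6 for IRF4. The distances ran from 0.0093 to 0.10 (log2).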

How the data were processed

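Signals of the 2 arrays were extracted by version 10.7.3.1 of Agilent Feature Extraction, according to the submitters' processing notes. Each deposited intensity is that software's processed signal, per the file headers, after background subtraction and spatial detrending on each array by itself. For 43603 probes, the deposited table of the authors gives log2 values within 0.001 of the logged signals, with medians of 4.81 (exosome) and 1.32 (supernatant) and no centring. The software's detection and outlier flags were used as the authors deposited them, per the file headers.

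Controls were left out, as were spots flagged as outliers (5 on the exosome array, 2 on the supernatant array), and spots of a probe were averaged. No spot was saturated. A gene was detected where any of its probes was well above background, and its difference is the mean over probes detected on both arrays. Where none was, a bound uses the lowest well-above-background signal of the supernatant array. The scaling was to the 75th percentile over probes detected on both arrays, since 13.1% of probes are detected in the supernatant. Symbols of 26740 probes came from the gene table of assembly ARS-UCD2.0, by accession, with the array's own name for the rest. The exon or untranslated part that each probe reads was not analysed here.

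The genes and lists were chosen with earlier results of these data known. From each list at most 6 genes could be named, those seen on both arrays first, then by exosome signal; 2 such genes are not reported here. IRF1 is in both the IRF list and the list for PIGR expression. The calculation was tested on simulated data. Python 3.11.15 and limma 3.58.1 were used. Alternatives were other scalings, normexp correction with an offset of 50, other filters and probe rules, outlier spots kept, and the authors' table.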

Additional observations from a re-analysis of the deposited data

How the results depend on the processing

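The detection of all 6 genes in the exosome fraction held under 11 of the 12 alternatives that give such a count (one without a filter on dim signals gives none), and was 4 when every probe of a gene had to be detected. In the supernatant the count was 3, and it was 6 with the weaker detection flag, 0 when a probe had to reach 4 times the lowest detected signal, 1 when every probe had to be detected, and 2 with the brightest probe of each gene, where JCHAIN becomes a bound of -2.99. The count at least 2-fold higher in the exosome fraction was 0 as scaled, 5 with no scaling, 4 with spike-ins and 3 with array medians. It was 2 each with the weaker flag, with no filter and with the brightest probe. With the authors' deposited table, whose lowest detected supernatant signal is 8.75, it was 1. Of all genes with a value, 15.9% passed the 2-fold mark as scaled and 90.3% with no scaling. For the other alternatives, and for the changed detection counts, no share of all genes is given. Those counts cannot show whether these genes moved more than others. The log2 difference turned to the exosome side for PRDM1 with array medians (0.052), spike-ins (1.27) and no scaling (3.54), for MZB1 with spike-ins (0.75) and no scaling (3.02), and for JCHAIN with no scaling (0.54). Over all alternatives the PIGR value ran from -0.68 to 6.43, FCGRT from -1.87 to 4.84 and IRF4 from -2.53 to 5.36, bounds included. No paired analysis was possible because each fraction has 1 array. Signal over background limits the supernatant: 12 of 15 probes there give only a bound or no value.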

Other observations

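Other leukocyte markers were also read in both fractions. Of 5 macrophage markers, 4 were well above background in the exosome fraction and 4 in the supernatant, 3 of them in both. That is 80% in each fraction, against 66.4% and 22.1% of all named genes. CD68, a lysosomal protein of macrophages, read 170 with exosome RNA and 34.5 with supernatant RNA. Of 7 T cell markers, 4 (57.1%) and 3 (42.9%) were detected, and 3 in neither fraction. CD3D, a chain of the T cell receptor complex, was detected by 1 of its 3 probes. Its signals were 888 with exosome RNA and 2437 with supernatant RNA, a difference of -1.46 before scaling. The other T cell markers measured in both fractions lay on the exosome side, with differences of 3.39 and 3.91 before scaling. Of 6 neutrophil markers, 3 (50%) and 1 (16.7%) were detected. S100A12, a calcium-binding defence protein, was 12.7-fold higher in the exosome fraction before scaling, at 1 of its 3 probes.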
